A study of Mus musculus with 12 samples.

Results

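Th2 cells whose NFATc1 cannot be SUMOylated (NFATc1/ΔS) were compared with wild-type (WT) Th2 cells by poly(A) RNA sequencing, using the 4 Th2 libraries of a series of 12. The 2 NFATc1/ΔS libraries and the 2 WT libraries cover days 2.5 and 3.5 of culture, so that each of these days held 1 pair. Per the labels, all 4 came from CD4+ T cells of spleen and lymph nodes of C57BL/6 mice, stimulated through CD3 and CD28 in medium with IL-4 and an antibody that blocks IFN-γ. The 4 Th17 libraries of the series, 2 NFATc1/ΔS and 2 WT at the same days, helped to estimate the spread, and per the labels they were grown in another medium with less anti-CD3. The p-values measure how the genotype difference varied between the 2 days within Th2 and within Th17. The labels do not say whether the libraries came from separate mice or cultures, so spread between mice may not be covered.

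NFATc1 is a transcription factor that enters the nucleus when calcium activates the phosphatase calcineurin after T cell receptor engagement. There it binds DNA together with partners such as AP-1 and switches on cytokine genes. SUMO is a small protein that is attached to lysines of other proteins and can change how a transcription factor acts. Th2 cells are helper T cells that depend on the factor GATA3 and are known for the cytokines IL-4, IL-5 and IL-13.

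The Th2 tables held 15063471 and 13867542 gene reads in NFATc1/ΔS cells on the earlier and the later day, against 14936549 and 14867049 in WT cells. The share of gene reads in introns was 2.319% and 3.975% in NFATc1/ΔS cells, against 2.277% and 2.929% in WT cells, and was highest in the NFATc1/ΔS library of day 3.5. Values per gene are given as CPM, counts scaled to a common library size after TMM normalisation, with the day 2.5 library before the day 3.5 library. The T cell genes Cd4 and Cd3e and the Th2 genes Gata3 and Il4ra were abundant in all 4 libraries, with Gata3 at 598 and 727 CPM in NFATc1/ΔS cells and 550 and 705 CPM in WT cells. Summed B cell markers came to 30.2 and 31.2 CPM in NFATc1/ΔS cells, against 37.0 and 42.0 CPM in WT cells, and summed dendritic cell markers to 96.1 and 99.0 CPM, against 87.6 and 123 CPM in WT cells, with no member called. Summed myeloid markers came to 11.3 and 12.6 CPM in NFATc1/ΔS cells, against 11.7 and 14.1 CPM in WT cells. In longer lists none was called, but log2 fold changes were below 0 for 5 of 6 tested myeloid genes (median -0.81), 9 of 10 B cell genes (median -0.32) and 8 of 10 dendritic cell genes (median -0.22), and their part in the results was not tested. Nfatc1 itself had 149 and 173 CPM in NFATc1/ΔS cells and 126 and 157 CPM in WT cells, a log2 fold change of 0.19 ± 0.08 (standard error) that did not pass (edgeR adjusted p = 0.421). Reads per gene cannot show a change at the SUMO sites, so the Nfatc1 counts check no label.

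NFATc1/ΔS Th2 cells had less RNA of several Th2 cytokines, of the factor Maf and of cytotoxic effector genes, while Gata3, Il4 and the receptor Il4ra differed little. At an edgeR adjusted p under 0.05, 122 of 13086 tested genes differed, which is 0.932% of them. Of these, 28 were higher (0.214%) and 94 were lower (0.718%) in NFATc1/ΔS cells. The median log2 fold change was 0.96 among the higher genes and -0.78 among the lower genes, and 47 genes lay beyond 1 on the log2 scale, 14 of them higher and 33 lower. All 122 had the same direction in both pairs, a property that the test itself favours. For BC117090 this is nominal, as its day 3.5 values were 0.068 CPM in NFATc1/ΔS and 0.069 CPM in WT cells. In 91 of the 122 genes both NFATc1/ΔS values lay outside the range of the WT values. The same was not counted over all tested genes, and the test favours it too, so it adds no support. The calls rest on pairing by day and on which libraries share the fit. Without the day block 1 gene passed. With all 12 libraries in the fit none of 13503 tested genes passed with edgeR. Of these, 329 were at an unadjusted p under 0.05, fewer than that threshold lets through when nothing differs. DESeq2 called 48.

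**Figure D1:**
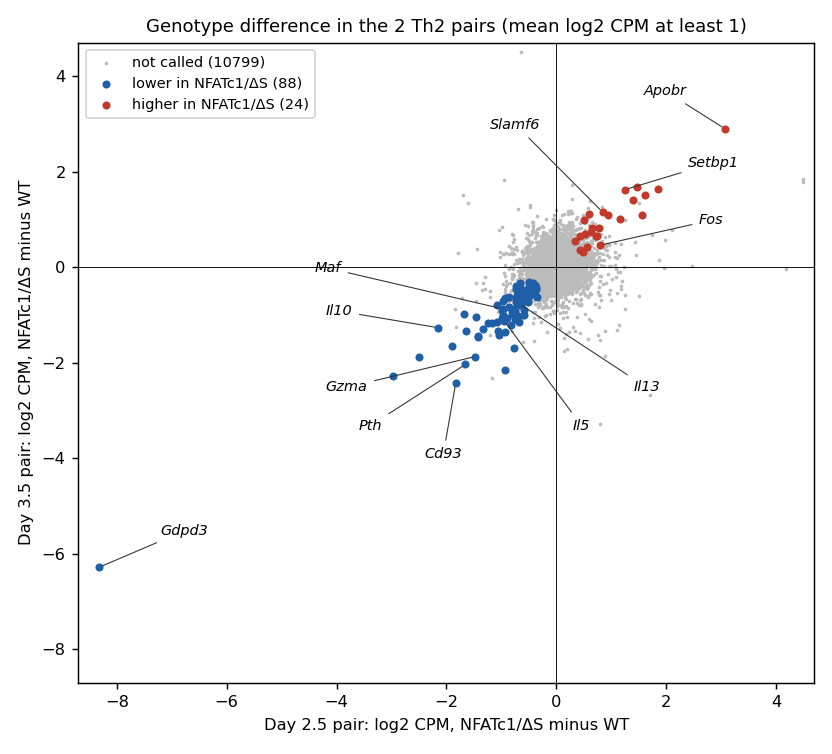
Each point is 1 gene with a mean of at least 1 log2 CPM over the 4 Th2 libraries, placed by the log2 CPM of NFATc1/ΔS minus WT at day 2.5 (x axis) and at day 3.5 (y axis). Called genes lie in the lower left (88 lower) and upper right (24 higher), with Gdpd3 and Apobr at the ends, and 3 uncalled points beyond the axes are drawn at the limit.

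Of 24 tested genes of the Th2 lineage list, 5 fell in NFATc1/ΔS cells, none rose and 19 did not pass, beside 0.718% of all tested genes that fell. The median log2 fold change of the list was -0.11, against -0.0038 over all genes tested. Il13, the cytokine of mucus production and airway responses, had 78.5 and 234 CPM in NFATc1/ΔS cells on the earlier and the later day, against 125 and 397 CPM in WT cells. It was lower in NFATc1/ΔS cells at each day and higher at day 3.5 in both genotypes, so the 2 groups overlap when days are mixed. Its log2 fold change was -0.72 ± 0.08 (edgeR adjusted p = 0.000395). Il5, the growth factor of eosinophils, had 8.00 and 21.4 CPM in NFATc1/ΔS cells, against 15.6 and 46.6 CPM in WT cells. It followed the same order, and its log2 fold change was -1.06 ± 0.15 (edgeR adjusted p = 0.00358), which did not pass without the day 3.5 pair or with DESeq2.

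Il10, which restrains inflammation, had the lowest log2 fold change of the list. It had 8.21 and 31.0 CPM in NFATc1/ΔS cells, against 37.0 and 74.8 CPM in WT cells, and the groups did not overlap. The log2 fold change was -1.64 ± 0.19 (edgeR adjusted p = 0.00617), with -2.15 in the day 2.5 pair and -1.27 in the day 3.5 pair. Maf, a factor that activates Il10 and Il4 in helper T cells, had 72.8 and 128 CPM in NFATc1/ΔS cells, against 143 and 235 CPM in WT cells. Its groups did not overlap either, at a log2 fold change of -0.92 ± 0.09 (edgeR adjusted p = 0.000129). Il24, a cytokine of the IL-10 family, had 110 and 418 CPM in NFATc1/ΔS cells, against 171 and 577 CPM in WT cells, with a log2 fold change of -0.55 ± 0.09 (edgeR adjusted p = 0.00546). The Il24 call was lost without the day 2.5 pair, and the Il10 call when the 4 Th2 libraries were fitted alone.

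The gene that names the lineage's first cytokine behaved otherwise. Il4 had 19.3 and 45.8 CPM in NFATc1/ΔS cells, against 25.04 and 44.8 CPM in WT cells. It was lower at day 2.5 only, and its log2 fold change of -0.15 ± 0.12 did not pass (edgeR adjusted p = 0.749). The log2 fold change of Gata3, the lineage factor, was 0.08 ± 0.08 (edgeR adjusted p = 0.809). The receptor genes Il4ra, Ccr4 and Ccr8 lay between -0.02 and 0.01 on the same scale.

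**Figure D2:**
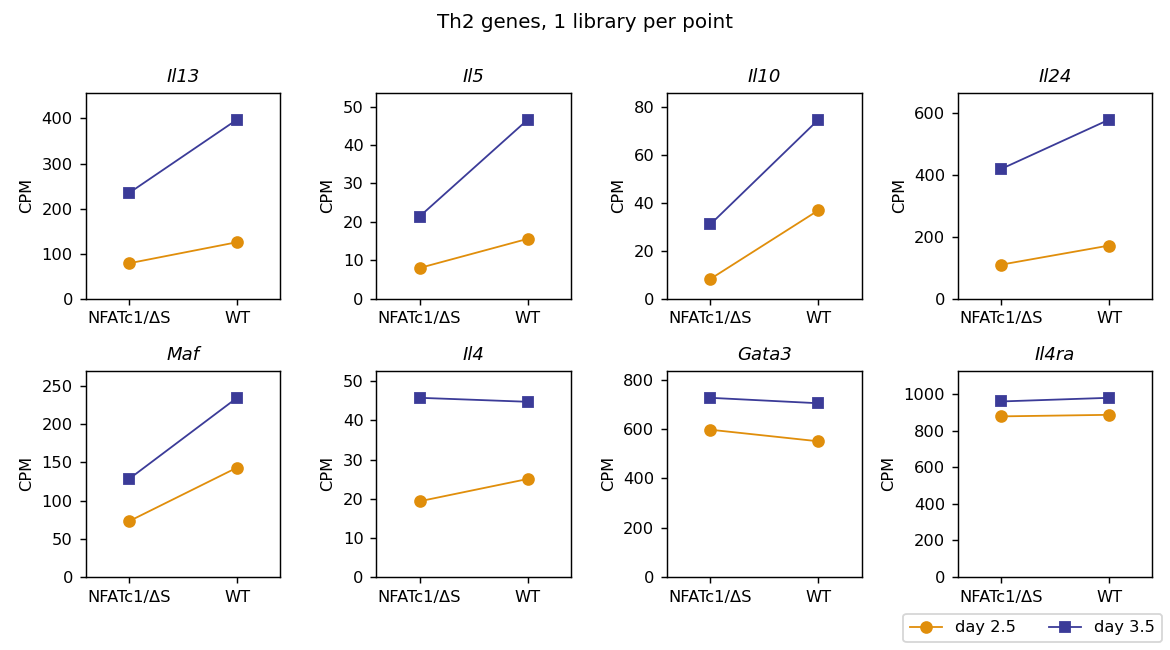
CPM (y axis, from 0) of 8 Th2 genes in NFATc1/ΔS and WT Th2 cells, 1 library per point, with lines joining the libraries of 1 day. Il13, Il5, Il10, Il24 and Maf are lower in NFATc1/ΔS cells at both days, while Il4, Gata3 and Il4ra differ little.

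Il4, Il13, Rad50 and Il5 are neighbours on chromosome 11, and Il24 and Il10 lie on the same stretch of chromosome 1. Between Il13 and Il5 sits Rad50, a DNA repair gene, which had 180.2 and 219 CPM in NFATc1/ΔS cells and 187 and 216 CPM in WT cells, a log2 fold change of -0.01 ± 0.09. Within this stretch, then, Il13 and Il5 were called and Il4 and Rad50 were not. Il19 and Il20, between Il24 and Il10, stayed under 0.5 CPM in all 4 libraries.

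The promoter windows of Il13, Il5, Gzmb, Prf1 and Slamf6 are shown because these called genes include cytokine, cytotoxic and receptor genes. Each runs from 250 bases before to 50 bases after the gene's start in the RefSeq annotation of GRCm38.p6, written 5′ to 3′ on the gene's strand. Capitals mark GGAAA, the core that NFAT proteins bind, or its reverse complement TTTCC.
Il13 (chr11:53634653-53634952, minus strand): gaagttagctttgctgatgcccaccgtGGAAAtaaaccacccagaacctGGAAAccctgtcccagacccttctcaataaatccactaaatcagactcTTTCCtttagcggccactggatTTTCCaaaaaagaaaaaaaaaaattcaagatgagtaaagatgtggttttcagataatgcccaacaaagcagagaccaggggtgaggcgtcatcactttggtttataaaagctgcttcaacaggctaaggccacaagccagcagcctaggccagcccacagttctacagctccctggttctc
Il5 (chr11:53720544-53720843, plus strand): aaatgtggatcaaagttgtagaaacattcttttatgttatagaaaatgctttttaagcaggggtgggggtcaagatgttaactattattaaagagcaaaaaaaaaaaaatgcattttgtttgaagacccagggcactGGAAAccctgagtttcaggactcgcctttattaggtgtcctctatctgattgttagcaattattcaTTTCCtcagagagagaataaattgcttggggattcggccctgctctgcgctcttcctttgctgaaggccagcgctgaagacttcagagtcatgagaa
Gzmb (chr14:56262285-56262584, minus strand): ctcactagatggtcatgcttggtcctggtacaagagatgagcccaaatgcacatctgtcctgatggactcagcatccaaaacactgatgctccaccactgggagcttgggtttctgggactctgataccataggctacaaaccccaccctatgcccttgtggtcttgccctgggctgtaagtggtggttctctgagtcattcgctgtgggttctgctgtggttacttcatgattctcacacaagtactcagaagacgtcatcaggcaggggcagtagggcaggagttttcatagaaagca
Prf1 (chr10:61297586-61297885, plus strand): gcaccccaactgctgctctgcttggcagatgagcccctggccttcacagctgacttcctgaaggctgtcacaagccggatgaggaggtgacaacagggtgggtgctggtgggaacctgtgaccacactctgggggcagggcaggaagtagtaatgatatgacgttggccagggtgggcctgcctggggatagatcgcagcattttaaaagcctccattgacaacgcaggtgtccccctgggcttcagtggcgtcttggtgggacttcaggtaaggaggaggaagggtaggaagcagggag
Slamf6 (chr1:171917212-171917511, plus strand): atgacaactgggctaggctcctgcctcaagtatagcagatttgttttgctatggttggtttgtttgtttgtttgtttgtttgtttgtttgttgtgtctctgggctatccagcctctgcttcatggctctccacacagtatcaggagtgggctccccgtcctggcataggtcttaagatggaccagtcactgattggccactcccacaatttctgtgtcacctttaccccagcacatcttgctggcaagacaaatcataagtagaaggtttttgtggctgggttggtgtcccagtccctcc

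The Il13 window held 4 NFAT cores and the Il5 window 2, while the windows of Gzmb, Prf1 and Slamf6 held 0. Of the 27025 genes with a window, 61.3% held the core on either strand. The share was 58.8% among the 17 higher genes with a window and 58.6% among the 70 lower genes, both near the share of all windows. A second motif, TGANTCA of AP-1, was in 7.93% of all windows, in 3 of the 17 and in 8 of the 70; among the windows shown it was in that of Gzmb. These are matches of letters, and binding was not measured.

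All 10 tested genes of the granzyme and cytotoxic list had a log2 fold change below 0 in NFATc1/ΔS cells, and 6 of them fell, beside 6666 of 13086 tested genes below 0 and 0.718% that fell. The list's median was -0.88. Gzma, a serine protease of cytotoxic granules, had 62.7 and 48.9 CPM in NFATc1/ΔS cells, against 175 and 179 CPM in WT cells. The groups were far apart at both days, and the log2 fold change was -1.68 ± 0.10 (edgeR adjusted p = 6.13e-06). Gzmb, the granzyme that activates caspases in target cells, had 261 and 279 CPM in NFATc1/ΔS cells, against 426 and 568 CPM in WT cells (log2 fold change -0.87 ± 0.10, edgeR adjusted p = 0.00045).

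Prf1, which encodes the pore-forming perforin, had 12.2 and 7.65 CPM in NFATc1/ΔS cells, against 25.3 and 20.7 CPM in WT cells. Its groups did not overlap, at a log2 fold change of -1.23 ± 0.14 (edgeR adjusted p = 0.000503). Gzmc, the neighbour of Gzmb on chromosome 14, had 4.36 and 12.6 CPM in NFATc1/ΔS cells, against 12.0 and 34.5 CPM in WT cells (log2 fold change -1.45 ± 0.14, edgeR adjusted p = 0.000118). Nkg7, a granule membrane protein, and Ctla2a, a protease inhibitor, also fell, with log2 fold changes of -0.89 and -0.64. Only 12.4% of the Ctla2a reads mapped uniquely, so its value is uncertain, and the Nkg7 call was lost without the day 3.5 pair and with DESeq2.

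Receptors of natural killer cells that also occur on activated T cells were low in both genotypes and lower in NFATc1/ΔS cells. Klrk1 (NKG2D) had 1.31 and 1.30 CPM in NFATc1/ΔS cells, against 3.75 and 3.79 CPM in WT cells (edgeR adjusted p = 0.0377). Klrc1 (NKG2A) had 4.00 and 2.46 CPM in NFATc1/ΔS cells, against 7.80 and 6.55 CPM in WT cells (edgeR adjusted p = 0.0214). Their neighbour Klrd1 (CD94) had a log2 fold change of -1.44 that did not pass (edgeR adjusted p = 0.086). The Klrc1 call was lost without the day 3.5 pair, and the Klrk1 call when either pair was left out and without robust fitting. Both were also lost with DESeq2 and with voom.

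Genes that mark CD8 T cells did not show this pattern. Cd8a had 8.07 and 5.26 CPM in NFATc1/ΔS cells and 8.02 and 5.17 CPM in WT cells, and Cd8b1 had 21.3 and 17.7 CPM against 22.1 and 17.9 CPM in WT cells. The natural killer genes Klrb1c and Ncr1 stayed under 1 CPM in all 4 libraries. The summed level of the 5 CD8 T and NK markers was 30.9 and 23.8 CPM in NFATc1/ΔS cells, against 34.0 and 25.1 CPM in WT cells, and none of the 3 tested was called. In a longer list of CD8 T and NK genes 2 of 10 tested were lower, namely Klrk1 and Klrc1, 9 were below 0 and the median was -0.61. In RNA from whole cultures, fewer cells of a type and less RNA per cell cannot be told apart.

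**Figure D3:**
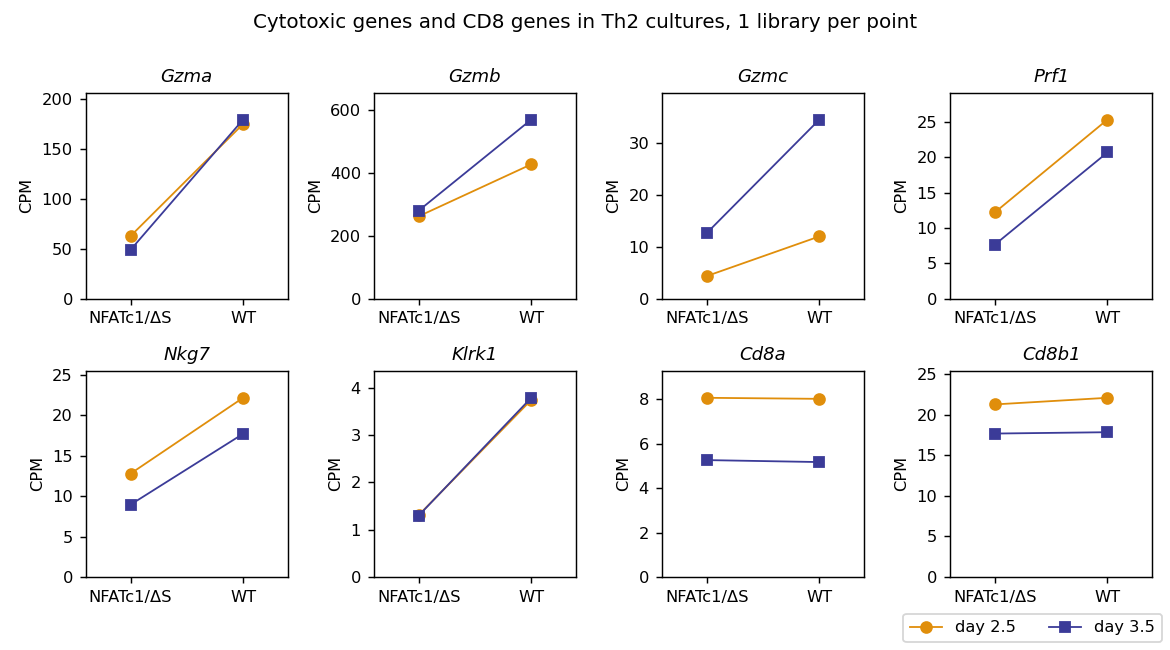
CPM (y axis, from 0) of 6 cytotoxic genes and of the CD8 genes Cd8a and Cd8b1 in NFATc1/ΔS and WT Th2 cells, 1 library per point, with lines joining the libraries of 1 day. The 6 cytotoxic genes are lower in NFATc1/ΔS cells at both days, and Cd8a and Cd8b1 are nearly level.

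Genes of other helper T cell states changed too, again beside 0.718% of all tested genes that fell and 0.214% that rose. Of 20 tested Th1 genes 4 fell, none rose, 19 were below 0 and the median was -0.20; among them were Gzmb, Nkg7 and Il12rb2, a subunit of the IL-12 receptor (log2 fold change -0.65 ± 0.09). Tbx21, the Th1 factor, and Ifng did not pass. Of 12 tested co-inhibitory receptors 3 fell and none rose. Ctla4, which competes with CD28 for its ligands, had 530 and 435 CPM in NFATc1/ΔS cells, against 800 and 617 CPM in WT cells (log2 fold change -0.55 ± 0.09, edgeR adjusted p = 0.00854). Tigit and Entpd1 (CD39) also fell, with log2 fold changes of -0.57 and -0.82, and these 3 genes were also the called members of the regulatory T cell list, whose factor Foxp3 did not pass. The Ctla4 call was lost when either Th2 pair was left out, the Tigit call without the day 2.5 pair and the Entpd1 call without the day 3.5 pair and with DESeq2.

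Of 17 tested follicular helper genes 2 rose and none fell. Slamf6, a receptor of the SLAM family, had 21.8 and 20.8 CPM in NFATc1/ΔS cells, against 12.1 and 9.31 CPM in WT cells. The groups did not overlap, at a log2 fold change of 1.00 ± 0.13 (edgeR adjusted p = 0.00185). Tox, a nuclear factor of T cell differentiation, had 4.36 and 1.57 CPM in NFATc1/ΔS cells, against 1.80 and 0.69 CPM in WT cells. Its call (edgeR adjusted p = 0.0382) was lost when either Th2 pair was left out, with DESeq2, with voom and with unique reads. None of 16 tested Th17 genes was called.

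In the TNF family, Tnfrsf26 and Lta (lymphotoxin alpha) rose, by 0.80 ± 0.11 and 0.49 ± 0.09 on the log2 scale, and Tnfrsf8 (CD30) fell by 0.54 ± 0.08; the other 18 of 21 tested members did not pass. The immediate early gene Fos, a subunit of AP-1, had 43.9 and 29.2 CPM in NFATc1/ΔS cells, against 25.3 and 21.2 CPM in WT cells, and rose by 0.63 ± 0.11 on the log2 scale. Ier3, another early gene, fell by 0.46 ± 0.09. The Lta and Fos calls were lost without the day 2.5 pair, and the Ier3 call when either pair was left out. With DESeq2 the Fos and Ier3 calls were also lost. Of 27 tested NFAT target genes 1 rose (Tox) and 3 fell (Il13, Il5 and Ctla4), with a median of 0.01. No member passed among 16 tested NFAT and calcineurin genes, among 18 genes of SUMO conjugation and removal, or among 20 NF-kB genes.

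Among metabolic and growth lists no single gene passed, while many members leaned one way. Glycolysis and hypoxia genes were below 0 in 22 of 24 tested members (median log2 fold change -0.18), and genes of ER folding in 22 of 23 (median -0.18). Genes of DNA replication and G1/S were above 0 in 26 of 27 (median 0.16), and genes of G2 and mitosis in 24 of 24 (median 0.17). Over all tested genes 6420 were above 0 and 6666 below. Members of such lists move together within a library, so these counts carry no test.

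**Figure D4:**
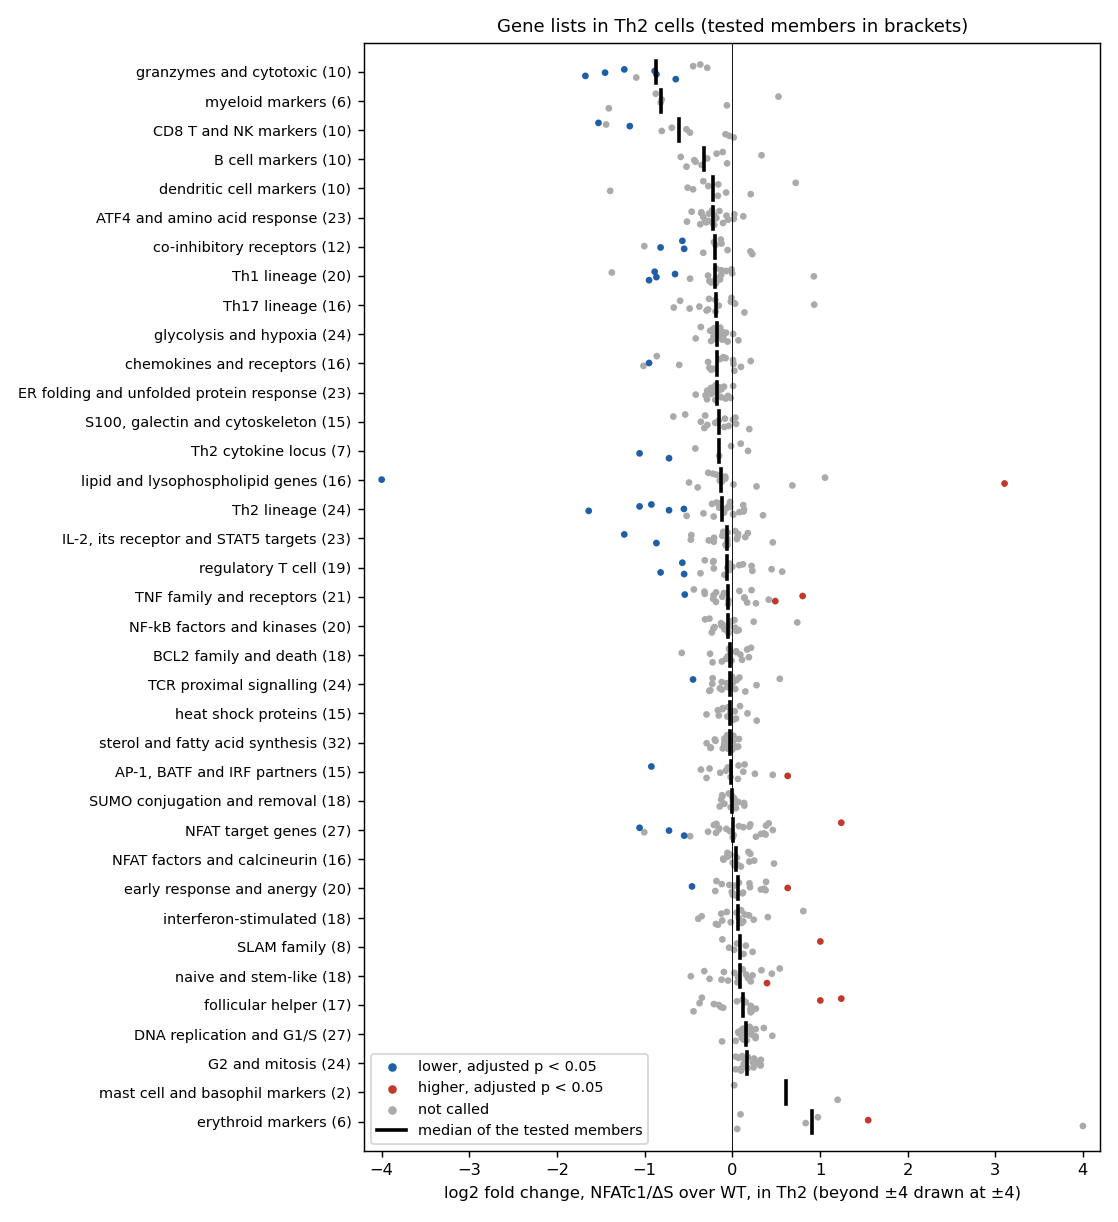
Log2 fold change of NFATc1/ΔS over WT in Th2 (x axis) for the tested members of 37 gene lists (y axis), 1 point per gene, with black bars for list medians and 2 points beyond the axis drawn at its limit. The granzyme and cytotoxic list has the lowest median, -0.88. The median of the erythroid markers is 0.91, and 0.10 with unique reads.

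The largest change was in Gdpd3, a lysophospholipase D enzyme. It had 0.145 and 0.683 CPM in NFATc1/ΔS cells, against 89.8 and 63.6 CPM in WT cells, nearly absent in one genotype and well expressed in the other. The log2 fold change was -7.46 ± 0.40 (edgeR adjusted p = 0.00207). With so few reads in NFATc1/ΔS cells its size is loosely set, at -9.19 without the day 3.5 pair, -6.51 without the day 2.5 pair and -10.25 with unique reads. Apobr, the apolipoprotein B receptor, lies within 2 Mb of Gdpd3 on chromosome 7 and had 8.58 and 11.1 CPM in NFATc1/ΔS cells, against 0.90 and 1.38 CPM in WT cells (log2 fold change 3.11 ± 0.25, edgeR adjusted p = 3.23e-05). These were the called genes among 105 tested in that window, 1.90% of them, beside 0.932% of all tested genes. The window was drawn around Gdpd3 with its change already known, so its own call lies in it by design. In Th17 cells the log2 fold changes were -5.36 for Gdpd3 and 3.50 for Apobr.

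Within 10 Mb of Nfatc1, 4 of 54 tested genes were called (7.41%, beside 0.932% of all genes). The autophagy gene Epg5 (log2 fold change 0.54), the urea transporter Slc14a1 (1.49) and Setbp1 (1.45), a SET-binding protein, were higher, and Gm10524 was lower, with no read in either NFATc1/ΔS library and under 1 CPM in WT cells. The Epg5 call was lost without the day 3.5 pair, and the Slc14a1 and Gm10524 calls when either pair was left out. With DESeq2 none of the 4 passed, at adjusted p of 0.102 for Setbp1, 0.441 for Gm10524, 0.652 for Epg5 and 0.704 for Slc14a1.

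Other large changes were in genes of varied function. Pth, which encodes parathyroid hormone, had 13.6 and 27.5 CPM in NFATc1/ΔS cells, against 43.1 and 113 CPM in WT cells (log2 fold change -1.88 ± 0.12, edgeR adjusted p = 9.37e-06). The surface proteins Cd93 and Cd24a fell, with log2 fold changes of -2.14 and -1.32, as did the protease Adamts13 (-2.80) and the glutamate transporter Slc17a6 (-1.45). Among higher genes, the retinaldehyde dehydrogenase Aldh1a3 rose by 1.68 ± 0.30 on the log2 scale, a call lost without the day 3.5 pair and with DESeq2. The prostaglandin receptor Ptger1 had a log2 fold change of 1.80, but 0% of its reads mapped uniquely and DESeq2 and voom did not call it. Lower too were the leukotriene receptors Cysltr1 (-0.76) and Cysltr2 (-0.68) and the steroid-producing enzyme Cyp11a1 (-0.73); DESeq2 did not call Cysltr1.

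The haemoglobin gene Hbb-bs had 9.74 and 0.888 CPM in NFATc1/ΔS cells, against 3.22 and 0.345 CPM in WT cells. Its call (edgeR adjusted p = 0.0214) was lost without the day 2.5 pair, with unique reads, with DESeq2 and without robust fitting. It was higher at day 2.5 in both genotypes, and the summed erythroid markers were 12.9 and 1.23 CPM in NFATc1/ΔS cells, against 4.05 and 0.621 CPM in WT cells. Their part in the other results was not tested. Of the 122 called genes 22 had under 50% uniquely mapped reads and 10 a mean under 1 log2 CPM. Among the called genes were 4 lower ones of the stefin cluster on chromosome 16, Gm5483, 2010005H15Rik, BC117090 and Stfa2. Stfa2, a cysteine protease inhibitor, had 0.291 and 0.547 CPM in NFATc1/ΔS cells, against 1.35 and 3.38 CPM in WT cells. BC117090 had 0.145 and 0.068 CPM in NFATc1/ΔS cells, against 4.57 and 0.069 CPM in WT cells. Its call thus rests on the day 2.5 pair, and 9.23% of its reads mapped uniquely.

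Intron reads, which come mostly from unspliced RNA, were also set beside the calls. The total gene reads behind the calls include them, so agreement is partly built in. They were scaled to the total intron reads of each library and averaged over the 2 days of a genotype. At day 3.5 the intron share was 3.975% in NFATc1/ΔS cells and 2.929% in WT cells. This scaling therefore gives lower NFATc1/ΔS intron levels at that day, relative to WT, than scaling to gene reads would. Scaling to gene reads was not tested. Of 60 lower genes with at least 40 intron reads over the 4 Th2 libraries, 50 were also lower in introns (median log2 difference -0.55). Of 16 higher genes, 14 were also higher in introns (median 0.70). Among the lower genes whose introns were not lower were Il24 (log2 difference 0.12) and Ctla4 (0.05). The same shares over all tested genes were not computed. A lower mean need not hold at both days. Il13 counted as lower (log2 difference -0.23), with 8 intron reads in NFATc1/ΔS and 16 in WT cells at day 2.5. At day 3.5 it had 48 intron reads in NFATc1/ΔS and 36 in WT cells, and was higher in NFATc1/ΔS cells after scaling too.

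The genotype difference in Th2 was then set against that in Th17. It differed for 39 of 13086 genes (0.298%), above that in Th17 for 11 and below it for 28. Of the 39, 20 were also called in Th2, beside 0.932% of all tested genes. The same Th2 values enter both tests, so this overlap is partly built in. Gzmb had a log2 fold change of -0.87 in Th2 and -0.05 in Th17 (edgeR adjusted p of the difference = 0.0253). Prf1 had -1.23 in Th2 and 0.24 in Th17 (edgeR adjusted p = 0.0119), and Gzmc had -1.45 in Th2 and -0.19 in Th17 (edgeR adjusted p = 0.0189). The difference also passed for Nkg7 (edgeR adjusted p = 0.0483), Tigit and Il1r2, the decoy receptor of IL-1. Each of them had a log2 fold change below 0 in Th2 and above 0 in Th17. For Gzma, at -1.68 in Th2 and -0.74 in Th17, the difference did not pass (edgeR adjusted p = 0.14). Without the Th2 day 3.5 pair the difference did not pass for Gzmb, Gzmc and Nkg7. Without the Th17 day 2.5 pair it did not pass for Nkg7, and without the Th17 day 3.5 pair it did not pass for Tigit. DESeq2 did not call it for Prf1, Gzmc and Nkg7, nor voom for Gzmb, Gzmc, Nkg7 and Tigit.

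For the Th2 cytokines no such difference passed, which does not show that the 2 cell types responded alike. Il10 had a log2 fold change of -1.64 in Th2 and -0.70 in Th17. Its difference was -0.94 ± 0.39 (edgeR adjusted p = 0.771). Il5 had -1.06 in Th2 and -1.24 in Th17, where it stayed under 1 CPM, and its difference of 0.19 ± 0.59 is loosely set. Il13 had a log2 fold change of -0.72 in Th2 and -1.22 in Th17, where it was far less abundant, and Maf had -0.92 in Th2 and -1.06 in Th17. Slamf6 had 1.00 in Th2 and 1.17 in Th17. Of the 94 lower genes 73 were also below 0 in Th17, and of the 28 higher genes 18 were also above 0. Their median log2 fold changes in Th17 were -0.30 and 0.36, against -0.0023 over all tested genes. The Th17 libraries also helped to set the spread behind these calls. Without the day block, or with all 12 libraries, no gene passed this test with edgeR, and DESeq2 called 13. As fitted here, 808 of 13086 tested genes were at an unadjusted p under 0.05.

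**Figure D5:**
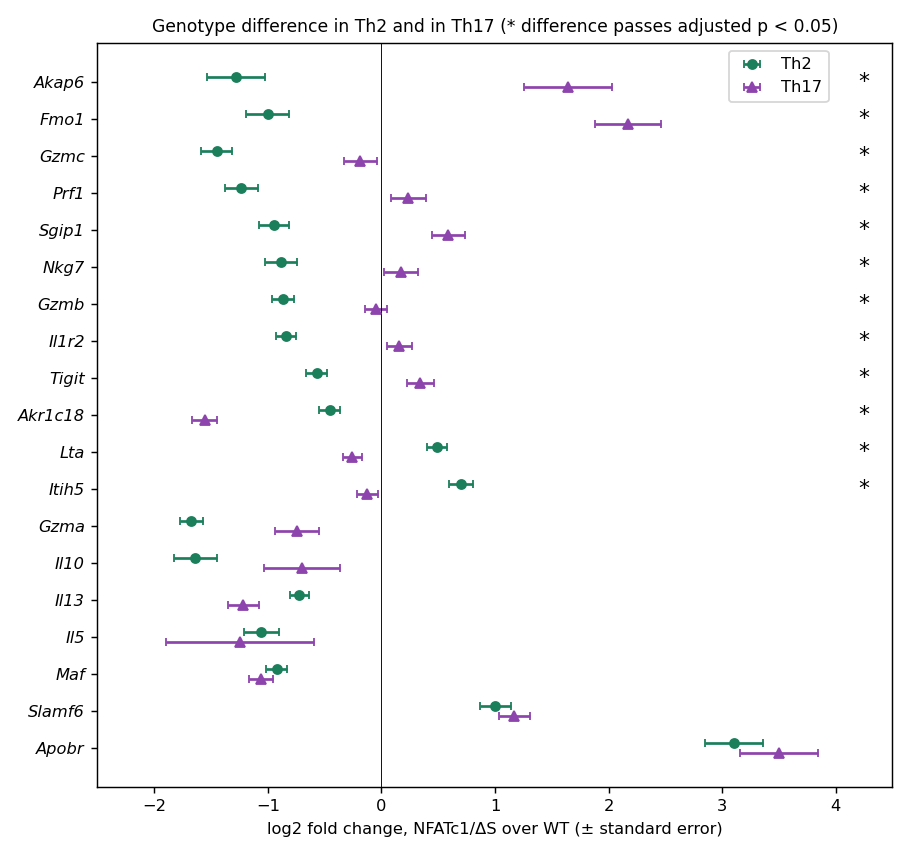
Log2 fold change of NFATc1/ΔS over WT (x axis, bars are standard errors derived from the F statistic) in Th2 (circles) and Th17 (triangles) for 19 named genes. Stars mark genes whose difference between the cell types passes an adjusted p of 0.05, among them Gzmb, Gzmc and Prf1. Gzma, Il10, Il13, Il5, Maf, Slamf6 and Apobr have none.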

How the data were processed

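The authors deposited 1 table per library with counts of reads for 41457 Ensembl genes, per the file headers. The total gene counts used here include exon and intron reads and reads that map to more than 1 place. The build is GRCm38, per the submitters' processing notes; which aligner and counter made them is not given in the sources used here.

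Genotypes were compared with edgeR 4.0.16 (R 4.3.3) in a quasi-likelihood fit of the 8 Th2 and Th17 libraries, with TMM scaling, filterByExpr (minimum count 10), robust fitting, day within cell type as blocks, and Benjamini-Hochberg adjustment at 0.05. The 8 libraries left 2 residual degrees of freedom, with a biological coefficient of variation of 7.63%. Standard errors are from the model. The Th1 libraries were left out because 1 of them stood apart in earlier results. Alternatives used DESeq2 1.42.0, limma 3.58.1 (voom), other filters and counts, and omitted libraries. Scripts were tested on simulated data. Total counts limit precision for low genes; errors cover counting and spread between pairs.

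The members, lists and tests were chosen with earlier results of these data known. Named genes were a set followed whatever its result, the 15 largest changes each way, up to 4 genes of smallest p per list, 6 each way for the Th2 and Th17 difference, and called genes near Nfatc1 and Gdpd3. Cysltr1, Cysltr2, Cyp11a1, Ctla2a, Klrd1, Itgb3 and the stefin genes are also named because of their values, as are the genes set beside a result (Cd4, Cd3e, Cd8a, Cd8b1, Rad50, Il4ra, Ccr4, Ccr8). Of the 122 called genes, 87 matched a promoter window by symbol. Some genes that the rule names are not reported here.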

Additional observations from a re-analysis of the deposited data

Results flagged for a closer look

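For each gene here the genotype difference in Th2 was unlike that in Th17 by a test of the difference itself (edgeR adjusted p under 0.05), and values are the log2 fold change in Th2 minus that in Th17. Below 0 were Adamts13 (-3.85), Fmo1 (-3.17), Capn11 (-3.02), Akap6 (-2.93), Sgip1 (-1.53), Prf1 (-1.47), Gzmc (-1.26), Nkg7 (-1.06), Il1r2 (-0.99), Tigit (-0.91), Gzmb (-0.82) and the integrin Itgb3 (-0.79). Above 0 were Igf2bp3 (1.47), Batf3 (1.42), Akr1c18 (1.10), Itih5 (0.82), Dennd5a (0.80) and Lta (0.75). Capn11, Batf3, Dennd5a and Igf2bp3 did not pass in Th2 itself. The Th2 calls of Akap6 and Akr1c18 were lost when either Th2 pair was left out, and those of Fmo1 and Itgb3 without the day 3.5 pair. The difference between cell types did not pass without the Th17 day 3.5 pair for Adamts13, Akr1c18, Lta and Tigit, without the Th17 day 2.5 pair for Nkg7, and without the Th2 day 3.5 pair for Gzmb, Gzmc and Nkg7. Of these 18 genes, DESeq2 did not call it for 8 and voom for 9. Capn11 had 13.4 and 17.2 CPM in Th2 NFATc1/ΔS cells and 15.4 and 14.9 CPM in Th2 WT cells, against 8.90 and 14.2 CPM in Th17 NFATc1/ΔS cells and 0.764 and 2.07 CPM in Th17 WT cells. Under 1% of the Fmo1 reads and 12.8% of the Sgip1 reads mapped uniquely.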

How the results depend on the processing

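The count of 122 genes in Th2 was 48 with DESeq2, 357 with no filter on low counts, 211 in the Th2 libraries alone, 1 without the replicate block (the day pairs), and 0 with all 12 libraries. Leaving out 1 replicate pair at a time gave 93 to 282; 80 of the 122 were among the 232 called without the Th2 day 2.5 pair, 58 among the 93 without the Th2 day 3.5 pair, and all 122 were called when either Th17 pair was left out. The 39 genes that differed between Th2 and Th17 became 13 with DESeq2, 13 with voom, 167 with no filter, 65 with unique reads, 16 without robust fitting, 0 without the replicate block, and 0 with all 12 libraries, and 60 to 162 when 1 pair was left out, with 25 to 37 of the 39 among them. The cause was not tested. Log2 fold changes in Th2 changed sign for Batf3 (0.0058 without the block), for Capn11 (-0.045 with exon reads) and, when 1 pair was left out, for Batf3 (-0.12 to 0.064), Capn11 (-0.20 to 0.22), Ifng (-0.82 to 0.069) and Il4 (-0.37 to 0.041). With 1 library per genotype and day, omitting a pair leaves the other to be judged by the Th17 spread.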
